A study of Mus musculus with 16 samples.

Results

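The 34 genes described here encode bone marrow matrix proteins, niche factors, endothelial surface proteins and adipocyte proteins. The members were given by gene symbol, and every one of the 34 was represented on the array by 1 probe set annotated to that gene alone, out of 19938 named genes in all. By role they were taken as 3 fibrillar collagens, 2 basement membrane collagens, 3 small leucine-rich proteoglycans, 9 secreted proteins of the matrix, 5 niche factors and stromal receptors, 9 endothelial genes and 3 adipocyte and lipid genes. The arrays came from 6 mice with Bank1+/- + Pax5+/- genotype and B cell precursor leukemia (Bank1/Pax5 leukemia), 6 leukemic mice of Pax5+/- genotype (Pax5 leukemia) and 4 arrays of WT marrow, 16 in all. Both leukemia groups therefore carried 1 lost Pax5 allele, and only the first also lacked a Bank1 allele. The leukemic tissue was labelled total bone marrow, taken as leukemic cells. The WT tissue was labelled as the proB and preB cells of marrow, with no account of its isolation in the labels. Age is not given for any group, and the animals were kept in a conventional facility where common pathogens were present. The design text counts 3 WT mice, whereas 4 WT arrays bear separate replicate labels, and all 4 were used as replicates. Their cell type label reads as leukemic cells, against their other labels, and was not followed.

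The marrow stroma is a small population of non-hematopoietic cells. CXCL12-abundant reticular cells wrap around the sinusoids, carry the leptin receptor, and secrete CXCL12 and stem cell factor, which hold stem cells and B cell precursors in their niche. Sinusoidal endothelial cells line the vessels of the marrow, osteoblast and fibroblast lineage cells lay down collagen, and marrow adipocytes store lipid. None of these cells is a B cell precursor. In these bulk samples, more cells of a type and more RNA per cell cannot be told apart.

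Array values were log2 intensities, and a difference of 1 on this scale is a 2-fold change. Pairs of arrays had r = 0.944 to 0.987 among Bank1/Pax5 leukemias, 0.968 to 0.982 among Pax5 leukemias and 0.992 to 0.995 among WT samples, over all probe sets. The lowest Pax5 gene levels were 7.85 and 8.02 (Bank1/Pax5 arrays 1 and 5) and 7.52 (Pax5 array 3), against 11.85 to 12.12 in WT cells. Other leukemia arrays reached the WT range, with a median of 10.07 and a highest value of 11.85 in Bank1/Pax5 leukemia. In Pax5 leukemia these were 11.53 and 12.21. The Pax5 gene was not called against WT in either leukemia (limma adjusted p = 0.101 and 0.446). Bank1 averaged 8.63 ± 0.78 in Bank1/Pax5 leukemia, 10.18 ± 0.79 in Pax5 leukemia (SD, n = 6 each) and 9.17 ± 0.12 in WT cells (SD, n = 4). A gene was treated as dim in a group where its mean lay under 6.96, the median of all named probe sets. Precision is limited by how many arrays there are.

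The first comparison set each leukemia against WT precursors. Leukemia and marrow fraction (total marrow against proB and preB cells) changed together here, so they cannot be told apart. Against WT, a gene that rose or fell was one called higher or lower than in these precursors. Most of these genes were higher in leukemic marrow: 24 of 34 rose and 0 fell in Bank1/Pax5 leukemia, and 24 of 34 rose and 0 fell in Pax5 leukemia, at an adjusted p under 0.05 in limma's test over all genes. Over all genes 6.80% were called higher in Bank1/Pax5 leukemia and 9.53% in Pax5 leukemia, and 19.6% and 23.3% were called in either direction. The members were chosen with earlier results of these data known, so their counts are not independent of that choice. The median log2 difference of the 34 genes was 1.91 in Bank1/Pax5 and 1.55 in Pax5 leukemia, against -0.03 and -0.05 over all genes tested. At least a 2-fold rise was called for 22 members in each leukemia, beside 2.53% and 2.81% of all genes, and a fall of that size for 0 members, beside 2.16% and 2.07%. Both comparisons used the same 4 WT arrays, so their results are not independent of each other. Called in both were 22 members, Fstl1 and Lpl were called in Bank1/Pax5 leukemia and not in Pax5 leukemia, and Col4a2 and Cdh5 were called in Pax5 leukemia and not in Bank1/Pax5 leukemia. The remaining 8 (Col1a1, Col1a2, Col3a1, Col4a1, Lum, Pecam1, Eng and Adipoq) passed in neither.

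In WT cells 27 of the 34 genes were dim, against 3 in Bank1/Pax5 leukemia (Lum, Cav1 and Adipoq) and 4 in Pax5 leukemia (the same genes and Kdr). Of the 22 members that rose at least 2-fold in Bank1/Pax5 leukemia, 21 were dim in WT, Igfbp4 being the exception. Every array of the leukemia group lay above every WT array for 26 members in Bank1/Pax5 leukemia and for 29 in Pax5 leukemia, beside 7.35% and 11.6% of all genes. The mean level of the 34 genes on an array lay between 7.84 and 9.20 in Bank1/Pax5 leukemia, between 7.64 and 8.69 in Pax5 leukemia and between 6.45 and 6.52 in WT cells. The mean level of 3 Y-linked genes ranged over 4.74 to 9.06 in Bank1/Pax5 leukemia, 4.75 to 9.13 in Pax5 leukemia and 4.83 to 4.85 in WT cells, so the groups differed in it. With that level as a covariate, chosen after seeing the data, 24 members were called higher in Bank1/Pax5 and 22 in Pax5 leukemia. Macrophage and megakaryocyte markers were also higher in leukemic marrow, as given with the marker lists at the end, and their part in these differences was not tested.

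**Figure D1:**
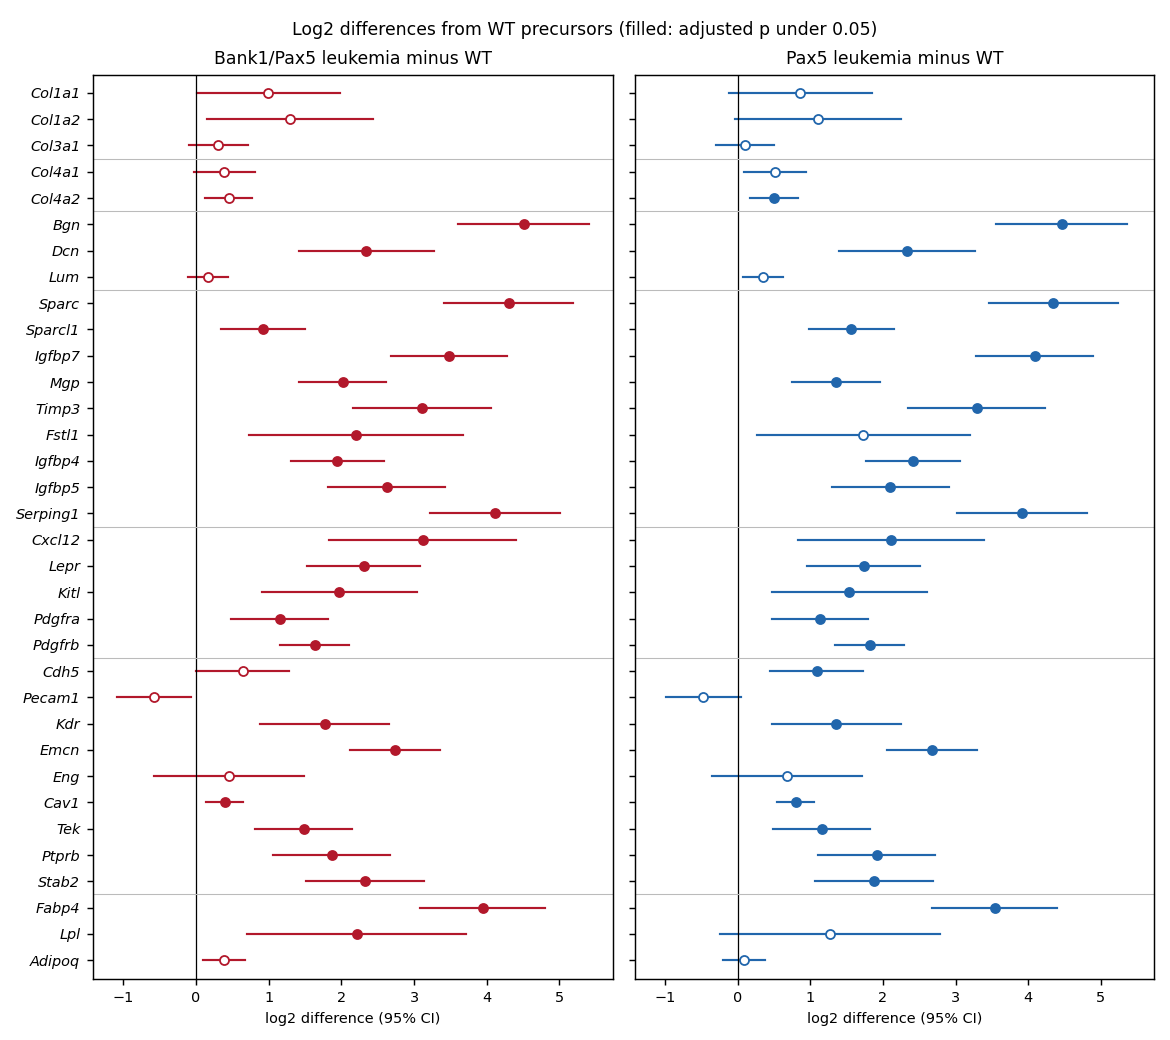
Log2 difference (horizontal axis) of each of the 34 genes (rows, grouped by role) in Bank1/Pax5 leukemia minus WT (left) and Pax5 leukemia minus WT (right), with 95% confidence intervals; filled points passed at an adjusted p under 0.05. Bgn, Sparc, Serping1, Igfbp7 and Fabp4 lie farthest to the right in both panels, and Pecam1 is the single gene left of 0 in both.

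Of the secreted matrix-associated genes, 9 of 9 rose in Bank1/Pax5 leukemia (median log2 difference 2.62) and 8 of 9 in Pax5 leukemia (2.41). Sparc encodes osteonectin, a calcium-binding protein that binds collagen. Its level ran over 9.97 to 12.04 (median 10.53) in Bank1/Pax5 leukemia, 9.89 to 11.72 (median 10.95) in Pax5 leukemia, and 6.62, 6.60, 6.53 and 6.43 in WT cells. No leukemia array came near the WT values, and the log2 difference was 4.30 (SE 0.42, adjusted p = 8.41e-06) in Bank1/Pax5 and 4.35 (SE 0.42, adjusted p = 7.34e-06) in Pax5 leukemia. Igfbp7 encodes an insulin-like growth factor binding protein deposited in vessel walls, and its level was 9.61 to 11.26 (median 10.36) in Bank1/Pax5 leukemia, 9.86 to 11.88 (median 11.08) in Pax5 leukemia, and 6.99, 6.96, 6.84 and 6.88 in WT cells. Its WT values sit just at the dim level, and its difference of 3.48 (SE 0.37, adjusted p = 2.11e-05) in Bank1/Pax5 and 4.08 (SE 0.37, adjusted p = 5.12e-06) in Pax5 leukemia is set against those dim values. Serping1, the gene of the C1 inhibitor that restrains complement and contact activation, was measured at 9.75 to 10.53 (median 9.98) in Bank1/Pax5 leukemia, 8.46 to 11.32 (median 9.75) in Pax5 leukemia, and 5.84, 5.92, 6.28 and 5.75 in WT cells. The groups did not overlap, the difference being 4.11 (SE 0.42, adjusted p = 1.34e-05) in Bank1/Pax5 and 3.91 (SE 0.42, adjusted p = 1.75e-05) in Pax5 leukemia. Its SD was 0.28 in Bank1/Pax5 leukemia and 1.05 in Pax5 leukemia.

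Timp3 encodes an inhibitor of metalloproteinases that stays bound to matrix, and its level was 7.91 to 9.90 (median 9.08) in Bank1/Pax5 leukemia, 8.23 to 10.60 (median 9.19) in Pax5 leukemia, and 6.02, 5.96, 5.79 and 5.93 in WT cells. Its difference from WT was 3.11 (SE 0.44, adjusted p = 0.000213) in Bank1/Pax5 and 3.29 (SE 0.44, adjusted p = 0.000121) in Pax5 leukemia, and all 12 leukemia arrays stood above the WT ones. Among the binding proteins of insulin-like growth factors, Igfbp5 lay at 7.99 to 9.11 (median 8.70) in Bank1/Pax5 leukemia, 6.93 to 9.29 (median 8.19) in Pax5 leukemia, and 5.95, 6.06, 5.97 and 6.21 in WT cells. That gave a difference of 2.62 (SE 0.38, adjusted p = 0.000229) in Bank1/Pax5 and 2.10 (SE 0.38, adjusted p = 0.00111) in Pax5 leukemia. Igfbp4, which unlike most of these genes was not dim in WT cells, lay at 9.28 to 10.73 (median 9.71) in Bank1/Pax5 leukemia, 9.61 to 10.88 (median 10.66) in Pax5 leukemia, and 8.17, 8.0, 7.94 and 7.87 in WT cells. It differed by 1.94 (SE 0.30, adjusted p = 0.000409) in Bank1/Pax5 and 2.41 (SE 0.30, adjusted p = 6.39e-05) in Pax5 leukemia, from WT values above the dim level. Which cells of the leukemic marrow gave the higher signal was not tested. Mgp, the matrix Gla protein that inhibits calcification, was at 8.13 to 8.96 (median 8.51) in Bank1/Pax5 leukemia, 6.98 to 8.97 (median 7.78) in Pax5 leukemia, and 6.78, 6.45, 6.34 and 6.27 in WT cells. Its rise was 2.02 (SE 0.28, adjusted p = 0.000181) in Bank1/Pax5 and 1.36 (SE 0.28, adjusted p = 0.00319) in Pax5 leukemia, and the lowest Pax5 leukemia array came close to the highest WT one.

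Sparcl1, a relative of Sparc found in vessels, had levels of 6.91 to 7.30 (median 7.09) in Bank1/Pax5 leukemia, 6.62 to 8.66 (median 7.77) in Pax5 leukemia, and 6.09, 6.11, 6.26 and 6.18 in WT cells. The difference was 0.92 (SE 0.27, adjusted p = 0.0273) in Bank1/Pax5 and 1.56 (SE 0.27, adjusted p = 0.000907) in Pax5 leukemia. In Bank1/Pax5 leukemia the call was lost without any single WT array, with a block for the replicate number or with the Y-linked covariate (adjusted p up to 0.142 over the settings tried). Fstl1, which encodes a secreted follistatin-like glycoprotein of mesenchymal cells, covered 6.52 to 10.06 (median 7.23) in Bank1/Pax5 leukemia, 6.45 to 8.58 (median 7.17) in Pax5 leukemia, and 5.66, 5.73, 5.64 and 5.72 in WT cells. Arrays 4 and 5 of Bank1/Pax5 leukemia were the high ones for Fstl1. Its difference was 2.20 (SE 0.69, adjusted p = 0.0359) in Bank1/Pax5 and 1.73 (SE 0.69, adjusted p = 0.0823) in Pax5 leukemia. The Bank1/Pax5 call ended without array 4 or array 5 or without any single WT array (adjusted p up to 0.0833 over the settings tried). It also ended with a block for the replicate number and with Pax5 leukemia left out of the fit.

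Of the small leucine-rich proteoglycans, which bind collagen fibrils, 2 of 3 rose in each leukemia. Bgn, the gene of biglycan, was at 9.49 to 11.29 (median 9.92) in Bank1/Pax5 leukemia, 8.98 to 11.17 (median 10.19) in Pax5 leukemia, and 5.66, 5.59, 5.77 and 5.92 in WT cells. Its log2 difference was 4.51 (SE 0.42, adjusted p = 6.77e-06) in Bank1/Pax5 and 4.46 (SE 0.42, adjusted p = 6.72e-06) in Pax5 leukemia, and the groups were far apart. Dcn, the gene of decorin, was at 7.44 to 9.44 (median 8.12) in Bank1/Pax5 leukemia, 7.16 to 9.45 (median 8.08) in Pax5 leukemia, and 5.87, 5.93, 5.98 and 5.91 in WT cells. The difference was 2.35 (SE 0.44, adjusted p = 0.00167) in Bank1/Pax5 and 2.33 (SE 0.44, adjusted p = 0.00155) in Pax5 leukemia. Lum, the gene of lumican, was dim in all 3 groups, with a mean of 4.91 over Bank1/Pax5 leukemias, 5.09 over Pax5 leukemias and 4.74 over WT arrays, and its differences of 0.17 and 0.35 did not pass (adjusted p = 0.387 and 0.0615). The proteoglycans thus did not share 1 pattern: Bgn and Dcn were high in leukemic marrow, and Lum was not measurable above the dim level anywhere.

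**Figure D2:**
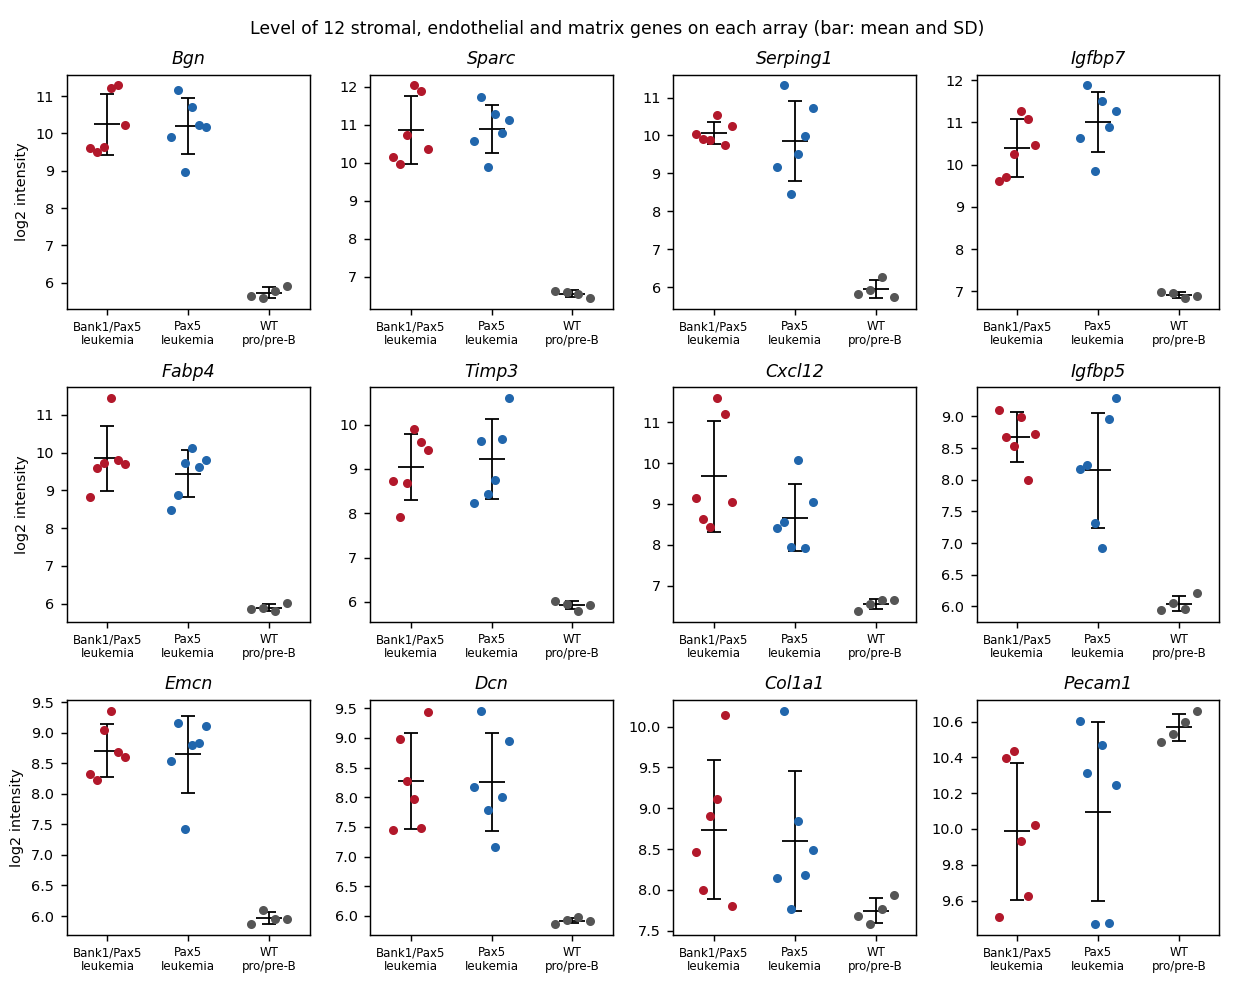
Level (vertical axis, log2 intensity) of 12 genes on each array in Bank1/Pax5 leukemia, Pax5 leukemia and WT pro-B and pre-B cells, with the mean and SD of each group as bars. The WT points of the first 10 genes lie tightly together below every leukemia point, those of Col1a1 meet the lowest leukemia points, and those of Pecam1 are among the highest.

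Collagen genes had fewer calls. Col1a1 and Col1a2 encode the chains of type I collagen, the main collagen of bone, and Col3a1 that of type III collagen of soft tissue. None of the 3 fibrillar collagens passed in either leukemia. Col1a1 was at 7.81 to 10.14 (median 8.68) in Bank1/Pax5 leukemia, 7.76 to 10.19 (median 8.33) in Pax5 leukemia, and 7.68, 7.58, 7.77 and 7.94 in WT cells. Its log2 difference was 0.99 (SE 0.46, adjusted p = 0.148) in Bank1/Pax5 and 0.86 (SE 0.46, adjusted p = 0.189) in Pax5 leukemia. The lower leukemia arrays overlapped the WT ones, and array 5 of Bank1/Pax5 leukemia and array 2 of Pax5 leukemia were the high ones. Col1a2 lay at 7.73 to 10.25 (median 8.28) in Bank1/Pax5 leukemia, 7.53 to 10.17 (median 8.25) in Pax5 leukemia, and 7.35, 7.26, 7.43 and 7.52 in WT cells. There the groups did not overlap, yet the wide spread among leukemias left the difference at 1.29 (SE 0.53, adjusted p = 0.106) in Bank1/Pax5 and 1.11 (SE 0.53, adjusted p = 0.144) in Pax5 leukemia. Both type I chains passed with array weights and with the Y-linked level as a covariate in both leukemias. With the covariate the Col1a1 difference was 1.91 in Bank1/Pax5 and 2.08 in Pax5 leukemia (adjusted p = 0.00313 and 0.00376). That of Col1a2 was 2.15 and 2.25 (adjusted p = 0.0141 and 0.0187). For Col3a1 the difference was 0.30 (SE 0.19, adjusted p = 0.283) in Bank1/Pax5 and 0.10 (SE 0.19, adjusted p = 0.733) in Pax5 leukemia. Col4a1 and Col4a2 encode the chains of the type IV collagen of basement membranes. Col4a2 rose in Pax5 leukemia by 0.50 (SE 0.15, adjusted p = 0.0305). That call was lost without array 2, 4 or 6 of Pax5 leukemia, without WT array 1, 2 or 3 or with a block for the replicate number (adjusted p up to 0.0833 over the settings tried). In Bank1/Pax5 leukemia it differed by 0.45 (adjusted p = 0.0534). Col4a1 was at 0.39 (adjusted p = 0.188) in Bank1/Pax5 and 0.51 (adjusted p = 0.0757) in Pax5 leukemia.

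All 5 niche factors and stromal receptors rose in each leukemia, with median log2 differences of 1.97 in Bank1/Pax5 and 1.74 in Pax5 leukemia. Cxcl12 encodes the chemokine that holds B cell precursors and stem cells in the marrow. Its level was 8.44 to 11.59 (median 9.10) in Bank1/Pax5 leukemia, 7.93 to 10.09 (median 8.48) in Pax5 leukemia, and 6.38, 6.54, 6.64 and 6.65 in WT cells. Arrays 4 and 5 of Bank1/Pax5 leukemia and array 4 of Pax5 leukemia stood above the rest, and no leukemia array overlapped WT. The log2 difference was 3.12 (SE 0.60, adjusted p = 0.00210) in Bank1/Pax5 and 2.11 (SE 0.60, adjusted p = 0.0203) in Pax5 leukemia, and the Pax5 call ended without WT array 1 and with the Y-linked covariate (adjusted p up to 0.10 over the settings tried). Kitl, the gene of stem cell factor and ligand of the receptor KIT, was at 6.56 to 9.21 (median 7.03) in Bank1/Pax5 leukemia, 6.39 to 7.89 (median 7.31) in Pax5 leukemia, and 5.61, 5.65, 5.62 and 5.61 in WT cells. Arrays 4 and 5 of Bank1/Pax5 leukemia were again the high ones. Its difference was 1.97 (SE 0.50, adjusted p = 0.0118) in Bank1/Pax5 and 1.54 (SE 0.50, adjusted p = 0.0373) in Pax5 leukemia. The Pax5 call ended without any single WT array, without array 2, 4, 5 or 6 of Pax5 leukemia or with the Y-linked covariate (adjusted p up to 0.0974 over the settings tried). It also ended with a block for the replicate number.

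Lepr encodes the leptin receptor, by which these reticular cells are recognised in mouse marrow. It lay at 6.93 to 9.33 (median 7.40) in Bank1/Pax5 leukemia, 6.75 to 7.64 (median 7.04) in Pax5 leukemia, and 5.40, 5.31, 5.26 and 5.46 in WT cells. Array 4 of Bank1/Pax5 leukemia was its highest, and the difference was 2.31 (SE 0.36, adjusted p = 0.000470) in Bank1/Pax5 and 1.74 (SE 0.36, adjusted p = 0.00341) in Pax5 leukemia. With the Y-linked covariate the Pax5 call of Lepr was lost (1.35, adjusted p = 0.0706, highest over the settings tried). Pdgfra and Pdgfrb encode the receptors of platelet-derived growth factor, of mesenchymal progenitors and of perivascular cells. Pdgfra was at 6.35 to 7.74 (median 6.73) in Bank1/Pax5 leukemia, 6.48 to 7.65 (median 6.78) in Pax5 leukemia, and 5.91, 5.61, 5.85 and 5.96 in WT cells. Its difference was 1.15 (SE 0.31, adjusted p = 0.0175) in Bank1/Pax5 and 1.13 (SE 0.31, adjusted p = 0.0170) in Pax5 leukemia, with the Bank1/Pax5 call lost without WT array 2. With a block for the replicate number the Pdgfra call was lost in both leukemias (adjusted p = 0.078 and 0.074). Pdgfrb was at 7.17 to 8.45 (median 8.19) in Bank1/Pax5 leukemia, 7.73 to 8.57 (median 8.29) in Pax5 leukemia, and 6.57, 6.17, 6.39 and 6.5 in WT cells. All leukemia arrays lay above WT for both receptors, and the Pdgfrb difference was 1.63 (SE 0.22, adjusted p = 0.000145) in Bank1/Pax5 and 1.82 (SE 0.22, adjusted p = 5.26e-05) in Pax5 leukemia.

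Because Bgn, Sparc and Igfbp7 were among the genes farthest above WT and Cxcl12 and Kitl rose with the niche genes, the promoter windows of these 5 genes are shown, each the 300 bases around the start of the gene from RefSeq (GRCm38.p6). RefSeq windows were found for 22 of the 34 members, and their letters were searched on both strands for the TATA box TATAAA, the GC box GGGCGG and the AP-1 site TGANTCA. Matches to these are in capitals. The windows are Bgn at chrX:73483351-73483650 on the plus strand, Sparc at chr11:55420031-55420330 on the minus strand, Igfbp7 at chr5:77407996-77408295 on the minus strand, Cxcl12 at chr6:117168285-117168584 on the plus strand and Kitl at chr10:100015571-100015870 on the plus strand, each printed 5′ to 3′ along its gene.
Bgn: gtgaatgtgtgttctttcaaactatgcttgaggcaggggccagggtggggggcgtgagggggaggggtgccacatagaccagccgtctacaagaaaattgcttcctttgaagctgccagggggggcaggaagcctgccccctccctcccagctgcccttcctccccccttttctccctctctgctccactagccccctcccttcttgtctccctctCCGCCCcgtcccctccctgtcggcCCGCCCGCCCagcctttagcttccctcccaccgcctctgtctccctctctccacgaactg
Sparc: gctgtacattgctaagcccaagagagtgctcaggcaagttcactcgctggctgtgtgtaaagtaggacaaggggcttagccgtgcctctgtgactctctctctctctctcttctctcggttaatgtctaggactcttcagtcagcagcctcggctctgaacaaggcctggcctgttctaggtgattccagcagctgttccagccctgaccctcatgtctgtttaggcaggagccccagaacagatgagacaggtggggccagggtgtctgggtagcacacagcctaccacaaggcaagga
Igfbp7: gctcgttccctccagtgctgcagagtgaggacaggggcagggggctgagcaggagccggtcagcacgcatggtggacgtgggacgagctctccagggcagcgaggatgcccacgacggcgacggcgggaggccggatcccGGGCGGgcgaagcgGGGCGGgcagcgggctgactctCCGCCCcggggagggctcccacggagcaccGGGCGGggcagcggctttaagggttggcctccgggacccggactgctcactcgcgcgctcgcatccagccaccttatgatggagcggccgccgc
Cxcl12: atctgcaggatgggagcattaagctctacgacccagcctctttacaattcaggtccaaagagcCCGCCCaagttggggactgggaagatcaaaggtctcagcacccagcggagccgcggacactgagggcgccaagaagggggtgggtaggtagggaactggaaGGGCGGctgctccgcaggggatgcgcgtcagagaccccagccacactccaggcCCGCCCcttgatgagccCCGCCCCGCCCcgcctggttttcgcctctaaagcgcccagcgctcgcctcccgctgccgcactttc
Kitl: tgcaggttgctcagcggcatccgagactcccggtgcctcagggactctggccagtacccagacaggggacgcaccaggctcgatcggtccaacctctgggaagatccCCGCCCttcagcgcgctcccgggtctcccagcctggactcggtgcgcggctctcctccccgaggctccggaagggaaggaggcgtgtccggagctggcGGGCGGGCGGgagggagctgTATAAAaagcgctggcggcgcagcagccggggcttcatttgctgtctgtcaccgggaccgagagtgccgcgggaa
The windows were not alike. Bgn held 3 GC boxes, Igfbp7 4, Cxcl12 5 and Kitl 3 (overlapping ones counted), Sparc held none, and Kitl alone of the 5 had a TATA box. Over the 22 windows matched, 12 genes had a GC box, 4 a TATA box and 0 an AP-1 site, against 35.7%, 13.6% and 7.81% of all 32851 promoter windows. A match describes letters only and says nothing of what binds there.

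Of 9 endothelial genes, 6 rose in Bank1/Pax5 leukemia and 7 in Pax5 leukemia, with median log2 differences of 1.48 and 1.16. Emcn encodes endomucin, a sialoglycoprotein of sinusoidal and venous endothelium, and was at 8.23 to 9.35 (median 8.64) in Bank1/Pax5 leukemia, 7.43 to 9.15 (median 8.82) in Pax5 leukemia, and 5.87, 6.09, 5.96 and 5.95 in WT cells. Its difference of 2.74 (SE 0.29, adjusted p = 2e-05) in Bank1/Pax5 and 2.67 (SE 0.29, adjusted p = 2.17e-05) in Pax5 leukemia was the largest of the endothelial genes in each leukemia. Stab2, the gene of a scavenger receptor for hyaluronan on sinusoidal endothelium, was at 8.15 to 10.66 (median 8.85) in Bank1/Pax5 leukemia, 8.13 to 8.96 (median 8.77) in Pax5 leukemia, and 6.74, 6.65, 6.77 and 6.82 in WT cells. The difference was 2.32 (SE 0.38, adjusted p = 0.000613) in Bank1/Pax5 and 1.87 (SE 0.38, adjusted p = 0.00268) in Pax5 leukemia, and no array overlapped. Ptprb encodes a phosphatase of vascular endothelial cells that acts on the receptor TEK, and was at 7.17 to 9.58 (median 7.64) in Bank1/Pax5 leukemia, 7.6 to 8.49 (median 8.15) in Pax5 leukemia, and 6.08, 6.20, 6.01 and 6.34 in WT cells. It differed by 1.87 (SE 0.38, adjusted p = 0.00297) in Bank1/Pax5 and 1.91 (SE 0.38, adjusted p = 0.00225) in Pax5 leukemia.

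Tek encodes TIE2, the receptor of the angiopoietins, and was at 6.69 to 8.50 (median 6.93) in Bank1/Pax5 leukemia, 6.59 to 7.6 (median 6.90) in Pax5 leukemia, and 5.78, 5.73, 5.89 and 5.83 in WT cells. Its difference was 1.48 (SE 0.31, adjusted p = 0.00379) in Bank1/Pax5 and 1.16 (SE 0.31, adjusted p = 0.0152) in Pax5 leukemia. With the Y-linked covariate the Pax5 call of Tek was lost (1.05, adjusted p = 0.110, highest over the settings tried). Kdr, the gene of the main receptor of vascular endothelial growth factor, was at 6.32 to 8.83 (median 7.04) in Bank1/Pax5 leukemia, 6.54 to 7.67 (median 6.87) in Pax5 leukemia, and 5.48, 5.68, 5.43 and 5.70 in WT cells. The leukemia arrays all lay above WT, with arrays 4 and 6 the highest in Bank1/Pax5 leukemia, and the difference was 1.77 (SE 0.42, adjusted p = 0.00754) in Bank1/Pax5 and 1.35 (SE 0.42, adjusted p = 0.0291) in Pax5 leukemia. The Pax5 call of Kdr ended without array 6 of Pax5 leukemia, without any single WT array or with the Y-linked covariate (adjusted p up to 0.220 over the settings tried). With that covariate the Bank1/Pax5 call of Kdr was lost as well (1.54, adjusted p = 0.0579). Cdh5 encodes VE-cadherin, the adhesion protein of endothelial junctions, and was at 7.90 to 9.64 (median 8.61) in Bank1/Pax5 leukemia, 8.44 to 9.75 (median 8.98) in Pax5 leukemia, and 8.11, 7.78, 7.99 and 7.99 in WT cells. The probe set was not dim in WT cells, the Bank1/Pax5 arrays overlapped WT, and the difference was 0.64 (SE 0.30, adjusted p = 0.152) in Bank1/Pax5 and 1.09 (SE 0.30, adjusted p = 0.0174) in Pax5 leukemia. With a block for the replicate number the Pax5 call of Cdh5 was lost (adjusted p = 0.067). The difference in Cdh5 between the leukemias themselves did not pass (-0.44, adjusted p = 0.344).

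Cav1, the gene of caveolin-1 in membrane caveolae, was dim in all 3 groups, at 5.51 to 5.78 (median 5.65) in Bank1/Pax5 leukemia, 5.6 to 6.4 (median 6.07) in Pax5 leukemia, and 5.30, 5.35, 5.22 and 5.16 in WT cells. It differed from WT by 0.39 (SE 0.12, adjusted p = 0.0331) in Bank1/Pax5 and 0.80 (SE 0.12, adjusted p = 0.000304) in Pax5 leukemia, and the Bank1/Pax5 call was lost without array 2, 4 or 5 of that group or without any single WT array (adjusted p up to 0.0998 over the settings tried). Pecam1 and Eng went with no call. Pecam1 encodes CD31, an adhesion protein that endothelial cells share with platelets and leukocytes. It was at 9.51 to 10.44 (median 9.98) in Bank1/Pax5 leukemia, 9.47 to 10.60 (median 10.28) in Pax5 leukemia, and 10.49, 10.53, 10.60 and 10.66 in WT cells. Here the WT arrays were the high ones, above every Bank1/Pax5 array, and the log2 difference was -0.58 (SE 0.24, adjusted p = 0.104) in Bank1/Pax5 and -0.47 (SE 0.24, adjusted p = 0.166) in Pax5 leukemia. Eng encodes endoglin, a coreceptor for TGF-beta present on endothelium and on some marrow progenitors, and was at 8.59 to 10.67 (median 9.43) in Bank1/Pax5 leukemia, 7.75 to 10.54 (median 9.90) in Pax5 leukemia, and 8.64, 9.23, 8.99 and 9.02 in WT cells. The WT values lay inside the range of Pax5 leukemia, with a difference of 0.45 (SE 0.48, adjusted p = 0.549) in Bank1/Pax5 and 0.67 (SE 0.48, adjusted p = 0.326) in Pax5 leukemia. Without array 3 of Pax5 leukemia, its lowest, the Eng difference was 1.05 and passed narrowly (adjusted p = 0.0496).

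Among adipocyte and lipid genes, 2 of 3 rose in Bank1/Pax5 leukemia and 1 of 3 in Pax5 leukemia. Fabp4 encodes a fatty acid binding protein of adipocytes, macrophages and capillary endothelium. It was at 8.83 to 11.44 (median 9.72) in Bank1/Pax5 leukemia, 8.49 to 10.12 (median 9.67) in Pax5 leukemia, and 5.86, 5.90, 5.81 and 6.03 in WT cells. The difference was 3.95 (SE 0.40, adjusted p = 1.39e-05) in Bank1/Pax5 and 3.54 (SE 0.40, adjusted p = 3.05e-05) in Pax5 leukemia, from WT values under the dim level. Lpl, the gene of lipoprotein lipase, which adipocytes, macrophages and CXCL12-abundant cells express, was at 6.35 to 10.84 (median 7.18) in Bank1/Pax5 leukemia, 6.26 to 8.06 (median 6.84) in Pax5 leukemia, and 5.73, 5.69, 5.63 and 5.78 in WT cells. Array 4 of Bank1/Pax5 leukemia was far the highest and array 5 the next. Its difference was 2.21 (SE 0.71, adjusted p = 0.0397) in Bank1/Pax5 and 1.27 (SE 0.71, adjusted p = 0.205) in Pax5 leukemia. The Bank1/Pax5 call ended without array 5, without any single WT array or with the Y-linked covariate (adjusted p up to 0.131 over the settings tried). It also ended with Pax5 leukemia left out of the fit. Adipoq encodes adiponectin, which adipocytes secrete. It was dim everywhere, at group means of 6.16, 5.86 and 5.77 in Bank1/Pax5 leukemia, Pax5 leukemia and WT cells, and differed by 0.38 (SE 0.13, adjusted p = 0.0590) in Bank1/Pax5 and 0.09 (SE 0.13, adjusted p = 0.662) in Pax5 leukemia.

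The second comparison asked whether the loss of a Bank1 allele went with another level of these genes, Bank1/Pax5 against Pax5 leukemia. Few differences were found: 0 of 34 rose and 1 fell, beside 1.71% and 5.00% of all genes called in those directions (6.70% in either, and 0.155% higher and 0.211% lower by at least 2-fold), and the median log2 difference was 0.06 against 0.02 over all genes. The leukemia groups overlapped for each of the 34 genes (0.833% and 1.87% of all genes did not overlap, higher and lower), and 4 members reached an unadjusted p under 0.05 (11.8% of the members, against 22.7% of all genes). Cav1 was the gene that fell, with a log2 difference of -0.40 (SE 0.11, adjusted p = 0.0375) and levels of 5.65 ± 0.10 in Bank1/Pax5 and 6.05 ± 0.29 in Pax5 leukemia (SD, n = 6 each). It was dim in both groups. The Cav1 call was lost with median centring, with only these groups in the fit, and without any of 12 single arrays (adjusted p up to 0.0984 over the settings tried). The other 3 with an unadjusted p under 0.05 were Sparcl1 at -0.64 (SE 0.24, adjusted p = 0.134), Mgp at 0.66 (SE 0.25, adjusted p = 0.135) and Adipoq at 0.29 (SE 0.12, adjusted p = 0.160).

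A p that misses the threshold does not show that the leukemias were alike, and the intervals give a range for each difference. Their spread is shared with the WT arrays, where the median SD of the 34 genes was 0.10, against 0.70 and 0.63 in the leukemias. The intervals may therefore be too narrow. For Bgn the log2 difference was 0.05 (95% interval -0.76 to 0.86). For Sparc it was -0.04 (-0.84 to 0.75) and for Igfbp7 -0.61 (-1.32 to 0.11). The matrix genes could thus lie somewhat higher or lower in either leukemia. Cxcl12 showed the largest positive difference, 1.01 (-0.14 to 2.16). Lpl came next at 0.94 (-0.40 to 2.29). For both, arrays 4 and 5 of Bank1/Pax5 leukemia were the high ones. Without array 4 of that group the Cxcl12 difference was 0.63 and that of Lpl 0.36. For Cdh5 the difference was -0.44 (-1.02 to 0.13).

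**Figure D3:**
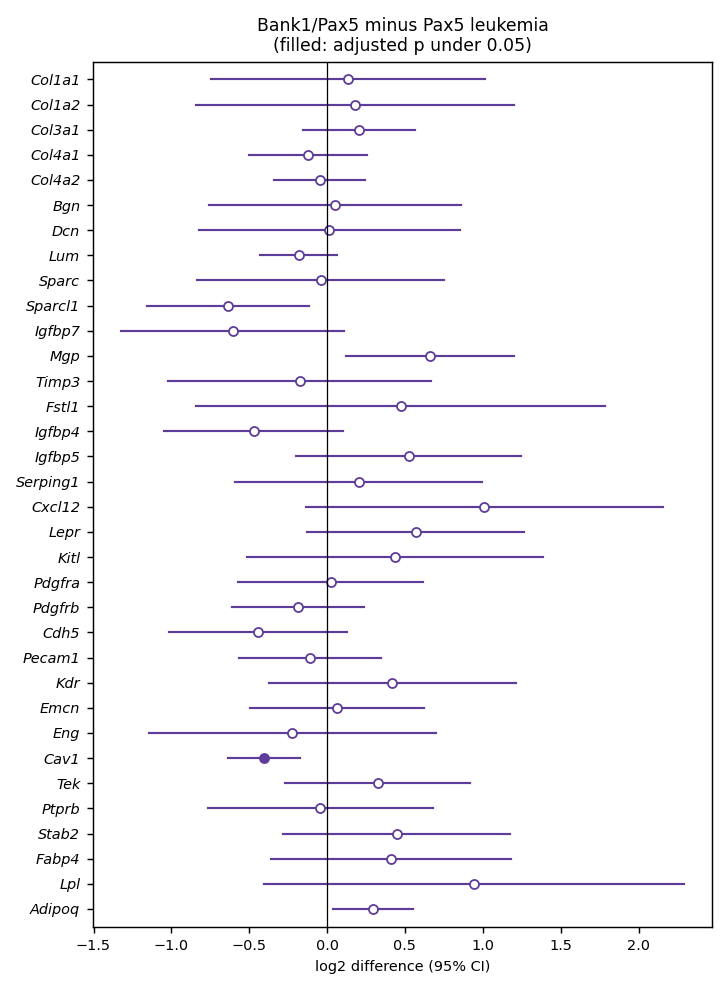
Log2 difference (horizontal axis) of each of the 34 genes (rows) in Bank1/Pax5 minus Pax5 leukemia, with 95% confidence intervals, 6 arrays in each group; the filled point passed at an adjusted p under 0.05. Cav1 alone is filled, at -0.40, and the intervals of most genes span 0.

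Within each leukemia group the genes varied far more than in WT cells. The median SD of the 34 genes was 0.70 among Bank1/Pax5 leukemias, 0.63 among Pax5 leukemias and 0.10 among WT arrays, against 0.18, 0.16 and 0.09 for all genes. In WT cells 27 of the 34 genes were dim, where a low signal can narrow the spread, and the marrow fraction was another one. The part of either in the small WT spread was not tested. The widest was Lpl in Bank1/Pax5 leukemia (SD 1.75) and Serping1 in Pax5 leukemia (SD 1.05). In Bank1/Pax5 leukemia, array 4 held the highest value for 20 of 34 genes, beside 24.6% of all genes, and array 2 the lowest for 13. Array 5 was highest for 7, among them Bgn, Col1a1 and Col1a2. In Pax5 leukemia, array 2 held the highest value for 17 of 34, beside 17.4% of all genes, and array 3 the lowest for 18, beside 20.2%. The median member stood 0.74 above its group mean on array 4 of Bank1/Pax5 leukemia and 0.55 below it on array 2, while it stood 0.38 above on array 2 of Pax5 leukemia and 0.53 below on array 3. The median over all genes on the same arrays lay between -0.02 and 0.04. Normalization and the centring on group means hold that median near 0, so it is no test of the shifts.

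The 20 genes led by array 4 of Bank1/Pax5 leukemia came from most roles, among them Cxcl12, Kitl, Lepr, Lpl, Fabp4, Stab2, Ptprb and Tek, and also Sparc, Igfbp7, Timp3 and Serping1. Array 2 of Pax5 leukemia led in Col1a1, Col1a2, Bgn, Sparc, Igfbp7, Serping1, Dcn and Mgp, whereas its Lepr and Tek values of 6.87 and 6.60 lay among the lower ones of its group. Array 6 of Pax5 leukemia led in Timp3, Igfbp5, Sparcl1, Kdr, Tek and Ptprb.

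**Figure D4:**
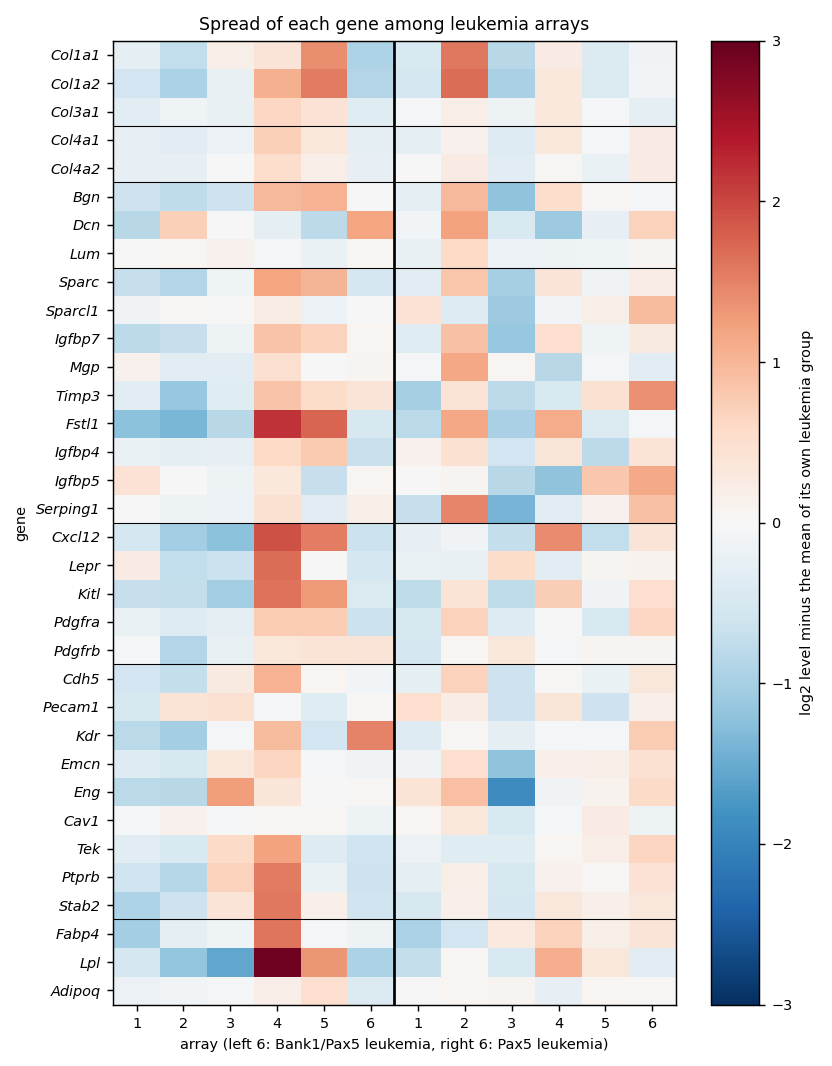
Log2 level of each of the 34 genes (rows) on the 12 leukemia arrays (columns) minus the mean of its own leukemia group, from blue (below) to red (above). Array 4 of Bank1/Pax5 leukemia is red for most rows, most of all Lpl, and array 3 of Pax5 leukemia is blue for most.

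A set of 16 gene pairs was compared across the 12 leukemia arrays after each group's mean was removed, with permutation tests adjusted over the 16 pairs; 1e-05 is the smallest p that these permutations can give. The type I collagen chains Col1a1 and Col1a2 moved together, with Pearson r = 0.964 (permutation p = 1e-05, adjusted p = 8e-05), Spearman rho = 0.951 (permutation p = 1e-05, adjusted p = 0.00016) and r = 0.904 without the 2 arrays farthest from the Col1a1 median. Within the groups r was 0.938 in Bank1/Pax5 leukemia (exact p = 0.00556, adjusted p = 0.089) and 0.998 in Pax5 leukemia (exact p = 0.00278, adjusted p = 0.0222). Col4a1 and Col4a2, which lie head to head in the genome, had Pearson r = 0.891 (permutation p = 0.00025, adjusted p = 0.000667), Spearman rho = 0.874 (permutation p = 0.00042, adjusted p = 0.00168) and r = 0.779 without the 2 arrays farthest from the Col4a1 median. In the groups taken alone, r was 0.973 in Bank1/Pax5 leukemia (exact p = 0.0139, adjusted p = 0.0891) and 0.721 in Pax5 leukemia (exact p = 0.122, adjusted p = 0.217). Both collagen pairs held without the arrays farthest out. Sparc and Igfbp7 had Pearson r = 0.947 (permutation p = 1e-05, adjusted p = 8e-05), Spearman rho = 0.93 (permutation p = 7e-05, adjusted p = 0.00048) and r = 0.945 without the 2 arrays farthest from the Sparc median. Group by group, r was 0.939 in Bank1/Pax5 leukemia (exact p = 0.0167, adjusted p = 0.0891) and 0.999 in Pax5 leukemia (exact p = 0.00278, adjusted p = 0.0222). Bgn and Sparc had Pearson r = 0.942 (permutation p = 2e-05, adjusted p = 0.000107), Spearman rho = 0.916 (permutation p = 9e-05, adjusted p = 0.00048) and r = 0.914 without the 2 arrays farthest from the Bgn median. Within the groups r was 0.93 in Bank1/Pax5 leukemia (exact p = 0.0417, adjusted p = 0.117) and 0.978 in Pax5 leukemia (exact p = 0.00556, adjusted p = 0.0297). Within Bank1/Pax5 leukemia neither the Sparc and Igfbp7 nor the Bgn and Sparc relation passed after adjustment.

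Other pairs were looser. Col1a1 and Col3a1 had Pearson r = 0.667 (permutation p = 0.0178, adjusted p = 0.0316), Spearman rho = 0.657 (permutation p = 0.0238, adjusted p = 0.0423) and r = 0.628 without the 2 arrays farthest from the Col1a1 median. In the groups taken alone, r was 0.745 in Bank1/Pax5 leukemia (exact p = 0.128, adjusted p = 0.186) and 0.61 in Pax5 leukemia (exact p = 0.225, adjusted p = 0.3). Bgn and Serping1 had Pearson r = 0.579 (permutation p = 0.0461, adjusted p = 0.0671), Spearman rho = 0.399 (permutation p = 0.2, adjusted p = 0.229) and r = 0.586 without the 2 arrays farthest from the Bgn median. Group by group, r was 0.304 in Bank1/Pax5 leukemia (exact p = 0.544, adjusted p = 0.544) and 0.8 in Pax5 leukemia (exact p = 0.0556, adjusted p = 0.111). High Bgn did not always come with high Serping1. Cdh5 and Kdr had Pearson r = 0.604 (permutation p = 0.0371, adjusted p = 0.0594), Spearman rho = 0.713 (permutation p = 0.012, adjusted p = 0.024) and r = 0.574 without the 2 arrays farthest from the Cdh5 median. Within the groups r was 0.632 in Bank1/Pax5 leukemia (exact p = 0.211, adjusted p = 0.26) and 0.61 in Pax5 leukemia (exact p = 0.225, adjusted p = 0.3). Cdh5 and Fabp4 had Pearson r = 0.531 (permutation p = 0.0763, adjusted p = 0.0939), Spearman rho = 0.42 (permutation p = 0.176, adjusted p = 0.217) and r = 0.434 without the 2 arrays farthest from the Cdh5 median. In the groups taken alone, r was 0.886 in Bank1/Pax5 leukemia (exact p = 0.0444, adjusted p = 0.117) and -0.123 in Pax5 leukemia (exact p = 0.803, adjusted p = 0.803). Cxcl12 and Lepr, both of reticular cells, had Pearson r = 0.543 (permutation p = 0.0618, adjusted p = 0.0824), Spearman rho = 0.448 (permutation p = 0.146, adjusted p = 0.195) and r = 0.135 without the 2 arrays farthest from the Cxcl12 median, so the relation rested on those arrays. Group by group, r was 0.804 in Bank1/Pax5 leukemia (exact p = 0.0722, adjusted p = 0.128) and -0.624 in Pax5 leukemia (exact p = 0.147, adjusted p = 0.235). The difference between the groups was not tested. Fabp4 and Adipoq, both of adipocytes, had Pearson r = 0.218 (permutation p = 0.493, adjusted p = 0.493), Spearman rho = 0.336 (permutation p = 0.287, adjusted p = 0.306) and r = -0.112 without the 2 arrays farthest from the Fabp4 median. Within the groups r was 0.413 in Bank1/Pax5 leukemia (exact p = 0.414, adjusted p = 0.442) and -0.444 in Pax5 leukemia (exact p = 0.286, adjusted p = 0.352).

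**Figure D5:**
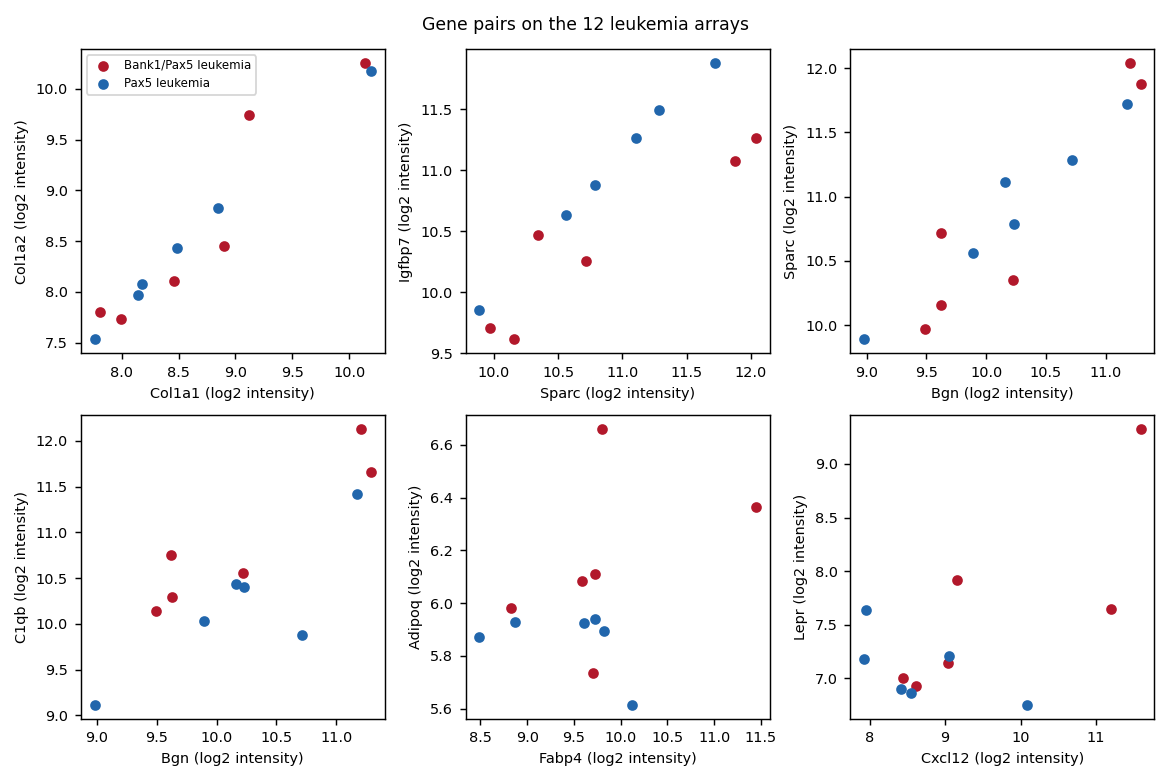
Levels (log2 intensity on both axes) of 6 gene pairs on the 12 leukemia arrays, red for Bank1/Pax5 and blue for Pax5 leukemia. Col1a1 with Col1a2 and Sparc with Igfbp7 lie close to a line, Bgn rises with the macrophage gene C1qb, and Fabp4 with Adipoq shows no line.

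The macrophage gene C1qb was set beside several matrix genes. C1qb, a complement gene of tissue macrophages, was at 10.15 to 12.14 (median 10.65) in Bank1/Pax5 leukemia, 9.12 to 11.42 (median 10.22) in Pax5 leukemia and 6.72, 6.56, 6.23 and 6.74 in WT cells. Across leukemia arrays Bgn and C1qb had Pearson r = 0.886 (permutation p = 0.00016, adjusted p = 0.00064), Spearman rho = 0.79 (permutation p = 0.00321, adjusted p = 0.00856) and r = 0.842 without the 2 arrays farthest from the Bgn median. In the groups taken alone, r was 0.927 in Bank1/Pax5 leukemia (exact p = 0.05, adjusted p = 0.117) and 0.84 in Pax5 leukemia (exact p = 0.0444, adjusted p = 0.101). Sparc and C1qb had Pearson r = 0.882 (permutation p = 0.0002, adjusted p = 0.00064), Spearman rho = 0.839 (permutation p = 0.00128, adjusted p = 0.0041) and r = 0.805 without the 2 arrays farthest from the Sparc median. Group by group, r was 0.918 in Bank1/Pax5 leukemia (exact p = 0.0583, adjusted p = 0.117) and 0.851 in Pax5 leukemia (exact p = 0.0389, adjusted p = 0.101). Igfbp7 and C1qb had Pearson r = 0.834 (permutation p = 0.00078, adjusted p = 0.00178), Spearman rho = 0.769 (permutation p = 0.00494, adjusted p = 0.0113) and r = 0.722 without the 2 arrays farthest from the Igfbp7 median. Within the groups r was 0.842 in Bank1/Pax5 leukemia (exact p = 0.0556, adjusted p = 0.117) and 0.828 in Pax5 leukemia (exact p = 0.0444, adjusted p = 0.101). These matrix genes were high where the macrophage gene was high. Serping1 and C1qb had Pearson r = 0.714 (permutation p = 0.00828, adjusted p = 0.0166), Spearman rho = 0.615 (permutation p = 0.0371, adjusted p = 0.0594) and r = 0.391 without the 2 arrays farthest from the Serping1 median, so that relation rested on those arrays. In the groups taken alone, r was 0.449 in Bank1/Pax5 leukemia (exact p = 0.364, adjusted p = 0.416) and 0.944 in Pax5 leukemia (exact p = 0.00833, adjusted p = 0.0333). Fabp4 and C1qb had Pearson r = 0.25 (permutation p = 0.438, adjusted p = 0.467), Spearman rho = 0.161 (permutation p = 0.62, adjusted p = 0.62) and r = -0.237 without the 2 arrays farthest from the Fabp4 median. Group by group, r was 0.704 in Bank1/Pax5 leukemia (exact p = 0.178, adjusted p = 0.237) and -0.398 in Pax5 leukemia (exact p = 0.456, adjusted p = 0.521). Sparc and the platelet gene Pf4 had Pearson r = 0.477 (permutation p = 0.116, adjusted p = 0.133), Spearman rho = 0.448 (permutation p = 0.146, adjusted p = 0.195) and r = 0.216 without the 2 arrays farthest from the Sparc median. Within the groups r was 0.704 in Bank1/Pax5 leukemia (exact p = 0.0889, adjusted p = 0.142) and 0.166 in Pax5 leukemia (exact p = 0.761, adjusted p = 0.803). What the arrays share that could set these correlations was not tested.

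The marker lists of marrow cells that share some of these genes also differed from WT. For these and the lists below, the shares of all genes called higher than WT were 6.80% in Bank1/Pax5 and 9.53% in Pax5 leukemia. Those called lower were 12.8% and 13.8%. Between the leukemias 1.71% of all genes were called higher and 5.00% lower. Of 18 macrophage markers, 15 rose and 0 fell in Bank1/Pax5 leukemia and 10 rose and 0 fell in Pax5 leukemia, with the mean level of the list at 8.07 to 10.45, 7.75 to 8.56 and 6.42 to 6.49 in Bank1/Pax5 leukemia, Pax5 leukemia and WT cells. Dim members of that list numbered 1, 5 and 15 in the same order of groups. Between the leukemias 1 macrophage marker of 18 was called, Adgre1, at 1.69 (SE 0.43, adjusted p = 0.0327). The first markers by p were C1qb, Slc40a1 and Mrc1 in Bank1/Pax5 leukemia (log2 differences 4.36, 3.59 and 3.87) and C1qb, C1qc and Axl in Pax5 leukemia (3.65, 3.18 and 2.53). Of 10 measured megakaryocyte and platelet markers, 7 rose in Bank1/Pax5 and 6 in Pax5 leukemia, with list levels of 8.62 to 10.82, 8.06 to 10.39 and 7.13 to 7.23. Ppbp, Pf4 and Gp9 came first in both (6.84, 4.37 and 3.27 in Bank1/Pax5 leukemia, 6.37, 3.66 and 2.63 in Pax5 leukemia). Macrophages and megakaryocytes are known to express Sparc, Lpl or Fabp4, and the part of these cells in the differences was not tested.

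Other genes of stroma, vessels and matrix, which were not members, were read as lists. Of 33 other matrix genes, 9 rose and 0 fell in Bank1/Pax5 leukemia (median log2 difference 0.51), and 14 rose and 0 fell in Pax5 leukemia (0.64). Thbs1, the thrombospondin gene that platelets and macrophages also express, came first in both (4.20, SE 0.53, in Bank1/Pax5; 3.61, SE 0.53, in Pax5 leukemia). It was followed by Fbln5 (1.54) and Tnc (2.54) in Bank1/Pax5 leukemia, and by the perlecan gene Hspg2 (0.90) and Postn, the gene of periostin (2.39), in Pax5 leukemia. Of 26 other marrow stroma genes, 13 rose in Bank1/Pax5 and 4 in Pax5 leukemia, with none lower. They were led by the adhesion gene Vcam1 (4.41 and 4.05), and after it by Angpt1 (1.92) and the reticular cell factor Foxc1 (1.05) in Bank1/Pax5 leukemia and by Cyp1b1 (1.82) and Prrx1 (1.37) in Pax5 leukemia. None of the 26 was called between the leukemias, where 6 reached an unadjusted p under 0.05 (23.1%, against 22.7% of all genes).

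Of 28 other endothelial genes, 13 rose and 1 fell in Bank1/Pax5 leukemia, and 16 rose and 0 fell in Pax5 leukemia. Mrc1, which is also on the macrophage list, came first in Bank1/Pax5 leukemia (3.87). Cd36 is on both this list and the adipocyte list, so the counts of these lists are not separate. Esam (1.61 and 1.65) and Egfl7 (1.79 and 1.96), both genes of endothelial cells that platelets or progenitors can share, were among the first in both leukemias. The gene that fell was Icam2, an adhesion gene that B cells also express, named after its value was seen. Aplnr, the apelin receptor gene, was at 0.95 in Pax5 leukemia and was called between the leukemias (Bank1/Pax5 minus Pax5 -0.68, SE 0.13, adjusted p = 0.00775). Among 11 smooth muscle and pericyte genes 4 rose and 1 fell in Bank1/Pax5 leukemia, and 6 rose and 1 fell in Pax5 leukemia, with the pericyte gene Rgs5 at 1.80 and 1.89 and Cnn1, the smooth muscle calponin gene, at -0.69 and -0.73. Myl9 rose by 3.77 in Bank1/Pax5 leukemia and Abcc9 by 1.87 in Pax5 leukemia. Of 8 measured osteoblast genes only Ibsp, the gene of bone sialoprotein, was called (2.71 and 2.61). Of 17 other adipocyte genes 4 rose and 0 fell in Bank1/Pax5 leukemia, and 3 rose and 2 fell in Pax5 leukemia. Over all genes 6.80% and 9.53% were called higher, and 12.8% and 13.8% lower, in the same order. The genes that fell were Plin1 and Pck1, named after their values were seen. Pparg was at 2.01 and 1.23 and Agpat2 at 1.95 and 2.04. Fasn, the fatty acid synthase gene that most dividing cells use, rose by 0.48 and 1.33 and was also called between the leukemias (Bank1/Pax5 minus Pax5 -0.85, SE 0.12, adjusted p = 0.00129).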

How the data were processed

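RNA from 16 mouse bone marrow samples was measured on oligonucleotide arrays, 6 of Bank1/Pax5 leukemia, 6 of Pax5 leukemia and 4 of WT proB and preB cells. The authors deposited log2 intensities per probe set, made with RMA through the oligo package, per the submitters' processing notes, which give no versions; neither background settings nor hybridisation batches are stated. Of 35556 probe sets, 21789 name 1 gene in the platform annotation, 1621 several and 12146 none, and probe sets naming several or none were left out. The 91 probe sets whose symbol could not be updated kept the annotation's symbol. Where several probe sets named a gene (999 genes), the brightest on average stood for it, which left 19938 genes. Array medians were 6.58 to 6.71, and no further scaling was applied.

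With limma 3.58.1 (R 4.3.3) a mean per group was fitted over the 16 arrays, with empirical Bayes moderation, and calls were made where the two-sided p, adjusted by Benjamini-Hochberg over the 19938 genes, was under 0.05. SE is the moderated standard error and intervals are at 95%. The design text gives 6 mice for each leukemia group and 3 for WT, so 1 or more WT arrays may share a mouse and p-values measure the spread between these samples. Correlations used 100000 resamples over 12 arrays and exact pairings within 6, with Python 3.11.15 and scipy 1.17.1. In simulated data with 200 genes changed by 2 on the log2 scale among 19938, 96.5% were recovered for Bank1/Pax5 minus WT, 95% for Pax5 minus WT and 97.5% for Bank1/Pax5 minus Pax5. The changed genes were drawn at random, each with the same SD in all groups. Over all genes the median SD was 0.18, 0.16 and 0.09 in Bank1/Pax5, Pax5 and WT arrays, against 0.70, 0.63 and 0.10 for the members. The simulation therefore does not give the share recovered among the members. The members, the lists and the tests were chosen with earlier results of these data known. Members called with an absolute log2 difference of at least 1 are given by each WT value and by range and median in each leukemia group. The other members are given by differences, counts and ranges. Companion lists are given by their called genes with the 3 smallest p-values per comparison, with C1qb, Pf4, Pax5 and Bank1 as reference genes. Alternatives were a filter on dim probe sets, the mean of a gene's probe sets, median centring, cyclic loess, array weights, robust moderation with a variance trend, leaving out each array, a block for the replicate number, fits without the third group, calls of at least 2-fold and, added after seeing the data, the Y-linked level as a covariate. Promoter windows came from RefSeq (GRCm38.p6).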

Additional observations from a re-analysis of the deposited data

Results flagged for a closer look

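Of 114 sets of values (a gene in a leukemia or WT group) examined for an array far from the rest, 7 were found where chance gives about 1 in 20, and WT groups of 4 were included. In Pax5 leukemia, Emcn on array 3 was 7.43, the next lowest array being at 8.53. Eng on the same array was 7.75, against 9.54 for the next lowest. The Pax5 gene on that array was 7.52, against 11.14. Kdr on array 6 of Pax5 leukemia was 7.67, against 6.95 for the next highest. Lum on array 2 was 5.68, against 5.17, and Adipoq on array 4 was 5.62, against 5.87, both at dim levels. In Bank1/Pax5 leukemia, Fabp4 on array 4 was 11.44, against 9.80 for the next highest.

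Between the leukemias, the difference from WT was not the same for Cav1, where Bank1/Pax5 minus Pax5 leukemia gave a lower level (-0.40, limma adjusted p = 0.0375), nor for Bank1 (-1.54, limma adjusted p = 0.0265). Bank1 is the gene with a lost allele in the first of these groups.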

How the results depend on the processing

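Against WT, 18 of the 24 members called in Bank1/Pax5 leukemia and 15 of the 24 called in Pax5 leukemia passed under each of the 25 alternatives, Cav1 in Pax5 leukemia passed under the 24 that kept it, and no difference from WT turned its direction. Leaving out 1 array at a time gave 19 to 26 members for Bank1/Pax5 minus WT, 20 to 26 for Pax5 minus WT and 0 to 2 for Bank1/Pax5 minus Pax5. Between the leukemias the 1 call, Cav1, became 0 with calls of at least 2-fold, with the filter on dim probe sets (which removes Cav1), with median centring and with only these groups fitted; the cause was not tested. Sparcl1 passed there without Pax5 array 3, and Mgp without Pax5 array 2. Direction turned for uncalled values between the leukemias: with cyclic loess for Sparc (0.067), with array weights for Bgn (-0.092), Pdgfra (-0.013) and Emcn (-0.037), and with the Y-linked covariate for Col1a1 (-0.17), Col1a2 (-0.10), Bgn (-0.074), Dcn (-0.033), Pdgfra (-0.09) and Emcn (-0.011). With 1 array left out the values ranged over -0.19 to 0.25 for Bgn, -0.15 to 0.45 for Col1a1, -0.13 to 0.52 for Col1a2, -0.15 to 0.0029 for Col4a2, -0.22 to 0.25 for Dcn, -0.18 to 0.16 for Emcn, -0.13 to 0.16 for Pdgfra, -0.35 to 0.13 for Ptprb, -0.0785 to 0.49 for Serping1, -0.28 to 0.13 for Sparc and -0.37 to 0.10 for Timp3.

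Over all genes, cyclic loess gave 2079 higher and 1933 lower for Bank1/Pax5 minus WT (1356 and 2543 as reported), 2302 and 2136 for Pax5 minus WT (1901 and 2754) and 452 and 618 between the leukemias (340 and 996), and median centring gave 2021 and 1953 for Pax5 minus WT. Array weights called 6486 and 8104 genes against WT (3899 and 4655 as reported), and fitting only the leukemias called 446 between them (1336). With the replicate number as a block, 21, 20 and 1 members were called, and 2542, 3112 and 696 of all genes. Same-numbered arrays correlated at -0.38 to 0.32 after group means were removed, over 0.1 in 6 of 14 pairs. Taking each pair from both sides, the best match in the other group had the same number in 4 of 28 cases. So few pairs cannot settle whether the numbers mark a pairing or batch. With the Y-linked covariate 24, 22 and 1 members were called, and 2857 and 3235 genes against WT. Most members were dim in WT, where signal limits the size of a difference.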

Other observations

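Markers of other marrow cells gave these values. Of 15 measured B lineage markers, 5 fell in Bank1/Pax5 leukemia and 4 in Pax5 leukemia, where 12.8% and 13.8% of all genes were called lower. The list level was 8.56 to 11.61, 8.48 to 11.31 and 11.96 to 12.12 in Bank1/Pax5 leukemia, Pax5 leukemia and WT cells. Spib, the gene of a B cell transcription factor, fell by 2.64 and by 1.65. The other first genes by p were Cd79b and Ebf1 in Bank1/Pax5 leukemia (-1.28 and -2.49) and Cd72 and Dntt in Pax5 leukemia (-4.34 and -3.51). Of 12 neutrophil markers, 0 passed in limma's test in Bank1/Pax5 leukemia, where 1 had an unadjusted p under 0.05 (8.33%, against 32.9% of all genes). Their log2 differences there were all positive, at 1.32 to 2.24 (median 1.81), with a wide spread between arrays. In Pax5 leukemia they were 0.48 to 2.33 (median 0.69), and Mmp9 alone was called, at 2.33 (9.53% of all genes were called higher). List levels were 8.0 to 12.34, 7.42 to 11.77 and 7.24 to 9.80 in the same order of groups. Of 6 measured erythroid markers, 0 passed in Bank1/Pax5 leukemia, where 1 had an unadjusted p under 0.05 (16.7%, against 32.9% of all genes). Alas2, the first enzyme of heme synthesis in red cell precursors, fell by 2.89 in Pax5 leukemia, where 13.8% of all genes were called lower. The erythroid list lay at 6.4 to 9.90, 6.30 to 7.33 and 7.69 to 8.15.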
